A study of Mus musculus with 14 samples.

Results

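The AP-1 transcription factor genes were followed by RNA-Seq of the left ventricle (LV) in WT and HCN4F mice, with and without pressure overload. The members are the 10 genes Fos, Fosb, Fosl1, Fosl2, Jun, Junb, Jund, Atf3, Maff and Batf3, chosen by symbol from the 49315 genes of the count table. All 10 had enough reads to be tested among 15292 genes. HCN4F mice carry a knock-in change in the C-linker of the pacemaker channel HCN4 that raises channel activity, and whether 1 or both alleles are changed is not given in the sources used here. TAC, transverse aortic constriction, narrows the aorta and loads the LV with pressure, and Sham mice were operated without constriction. Male mice were operated at 10 to 12 weeks of age and hearts were taken 5 weeks later. The groups were WT-Sham (WT mice, Sham surgery, n = 4), HCN4F-Sham (knock-in mice, Sham surgery, n = 4), WT-TAC (WT mice, TAC surgery, n = 2, replicates 2 and 3) and HCN4F-TAC (knock-in mice, TAC surgery, n = 4). The question was which AP-1 genes differed with pressure overload, with the genotype, or with both.

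AP-1 is a dimer of basic leucine zipper (bZIP) proteins that binds short DNA elements near its target genes. Fos proteins cannot pair with each other and need a Jun partner, while Jun proteins also pair among themselves and with Atf proteins. Fos, Fosb and Junb belong to the immediate early genes, whose transcripts rise within minutes of a stimulus such as stretch or an adrenergic signal and decay soon after. Jund and Fosl2 are present more steadily. In the heart these genes are known as early responders to load and injury.

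The 14 libraries held 22309914 to 35210939 counts, with a median of 27676181. Mitochondrial genes took 19.6% to 23.1% of the counts in WT-Sham, 17.1% to 21.4% in HCN4F-Sham, 18.4% and 20.03% in WT-TAC and 13.9% to 18.6% in HCN4F-TAC, so that WT-Sham and HCN4F-TAC did not overlap. The lowest share was that of HCN4F-TAC replicate 2, and the part of this share in the results was not tested. A count of 0 allows up to 3 counts, or 0.0852 to 0.134 CPM (each count divided by the library's total, scaled to a common size), and this limit covers counting error only. Counts do not resolve the coding change of Hcn4. Its level was 9.45 ± 1.07 CPM in WT-Sham (SD, n = 4), 9.07 ± 2.87 in HCN4F-Sham (n = 4), 12.7 ± 1.12 in WT-TAC (n = 2) and 6.73 ± 2.55 in HCN4F-TAC (n = 4), and no comparison of it passed the test. The 8 markers of ventricular cardiomyocytes were present in every library at a summed 54222 to 74809 CPM, as the tissue label states. Samples were whole pieces of tissue, in which fewer cells of a type and less RNA per cell cannot be told apart.

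The start regions of Fos and Junb are shown because these were the members that differed in most comparisons and whose levels moved together across libraries. Both windows cover the 250 bases before the RefSeq start site in GRCm38.p6, read 5′ to 3′ on the gene's strand. Capitals mark TGACG, the core of the cAMP response element, to which Atf, Creb and some AP-1 dimers bind. The Fos window is on the plus strand at chr12:85473640-85473889, and the Junb window on the minus strand at chr8:84978749-84978998.
Fos: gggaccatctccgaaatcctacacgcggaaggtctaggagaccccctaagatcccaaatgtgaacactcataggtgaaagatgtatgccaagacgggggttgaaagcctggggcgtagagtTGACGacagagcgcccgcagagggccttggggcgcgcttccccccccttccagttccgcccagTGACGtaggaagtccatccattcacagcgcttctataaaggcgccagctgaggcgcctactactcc
Junb: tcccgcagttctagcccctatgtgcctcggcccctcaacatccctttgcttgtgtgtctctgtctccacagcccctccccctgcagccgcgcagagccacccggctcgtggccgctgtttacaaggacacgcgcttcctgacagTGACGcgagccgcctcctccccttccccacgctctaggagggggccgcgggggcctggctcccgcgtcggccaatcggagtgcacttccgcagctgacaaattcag
In Fos this core stood at positions -129 to -125 and -66 to -62 from the start site, and in Junb at -106 to -102. Of 9 members with a RefSeq window, Fosb (-60 to -56), Atf3 (-7 to -3, as CGTCA on the printed strand) and Maff held the core too. Maff has 3 annotated starts. The core was in 2 of their windows, in 1 of them within the full cAMP response element TGACGTCA at -29 to -22, which contains the core on both strands. The core, searched as TGACG or CGTCA, occurred in 17.8% of 32851 mouse windows of the same length, and the full element in 1.55%. The TPA response element, the classical AP-1 site, was searched as TGACTCA or TGAGTCA. It was in no window of a member and in 4.46% of all windows. Only these exact letters were counted, and near matches, such as TGACATCA in the Jun window, were not searched. The CArG box, bound by serum response factor (SRF), was in no member's window and in 1.47% of all. Sequence outside these 250 bases was not searched, so no member is shown to lack a CArG box or an AP-1 site. The RefSeq start was the GENCODE gene start for Fos, Jun and 1 Maff window, and differed for the other windows. The Jund window ended at 70697738, before the GENCODE start at 70698949. The Atf3 window, at 191183334 to 191183583, lay inside the gene, whose GENCODE start on the minus strand is 191218039. The matches hold for these windows only.

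Levels between genes are compared as CPM per kb of exon in GENCODE M21 (GRCm38). Averaged over all libraries, Jund was highest at 99.9 CPM per kb, followed by Jun at 33.3 and Junb at 26.5. Maff followed at 8.11, Atf3 at 4.95, Fosl2 at 4.54 and Fos at 4.42, and Fosl1 (1.12), Fosb (0.246) and Batf3 (0.189) were lowest. In WT-Sham the order began with Jund at 91.5 ± 3.88 CPM per kb (SD, n = 4) and Jun at 36.5 ± 6.28, far above Junb at 7.79 ± 1.49. There Junb and Maff (7.32 ± 1.76), Fosl2 (3.75 ± 0.397) and Atf3 (3.64 ± 1.18), and Fos (0.992 ± 0.0831) and Fosl1 (0.878 ± 0.234) were neighbours within their SDs. In HCN4F-TAC the order began with Jund (109.5 ± 7.59, n = 4), and Junb (45.9 ± 11.8) had a higher mean than Jun (32.9 ± 4.03). Maff (9.67 ± 1.29), Atf3 (8.70 ± 5.82) and Fos (7.86 ± 2.64) were there within their SDs of each other.

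Fos, the immediate early Fos protein, was low and even in WT-Sham. Its level was 2.33, 2.32, 2.10 and 2.58 CPM in the 4 WT-Sham libraries. In HCN4F-Sham it was 6.44, 8.81, 14.7 and 4.98 CPM. The WT-TAC libraries had 15.3 and 12.1 CPM, and the HCN4F-TAC libraries 15.3, 24.8, 22.5 and 11.4 CPM. Every library of the other 3 groups lay above the highest WT-Sham library, while HCN4F-Sham and HCN4F-TAC overlapped. Fos (ENSMUSG00000021250) lies on chromosome 12 at 85473890 to 85477273, and no annotated gene overlaps it.

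Junb, a Jun protein that can restrain Jun, showed the same order of groups at a higher level. It measured 22.1, 15.2, 15.0 and 19.3 CPM in WT-Sham. In HCN4F-Sham it measured 53.3, 60.6, 69.1 and 38.6 CPM, in WT-TAC 72.7 and 66.4 CPM, and in HCN4F-TAC 83.7, 141, 112 and 85.2 CPM. No HCN4F-TAC library overlapped any library of another group. Junb (ENSMUSG00000052837) lies on chromosome 8 at 84974484 to 84978718 on the minus strand, and its exons overlap those of Prdx2, a peroxiredoxin gene on the other strand. Whether counting used strand is not given in the sources used here, so reads of Junb and Prdx2 could not be told apart where they overlap. Prdx2 itself had 302 ± 9.75 CPM in WT-Sham (SD, n = 4) and 263 ± 7.54 in HCN4F-TAC (n = 4), and passed no test, with log2 fold changes of -0.19 to -0.01 in the 4 comparisons.

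**Figure D1:**
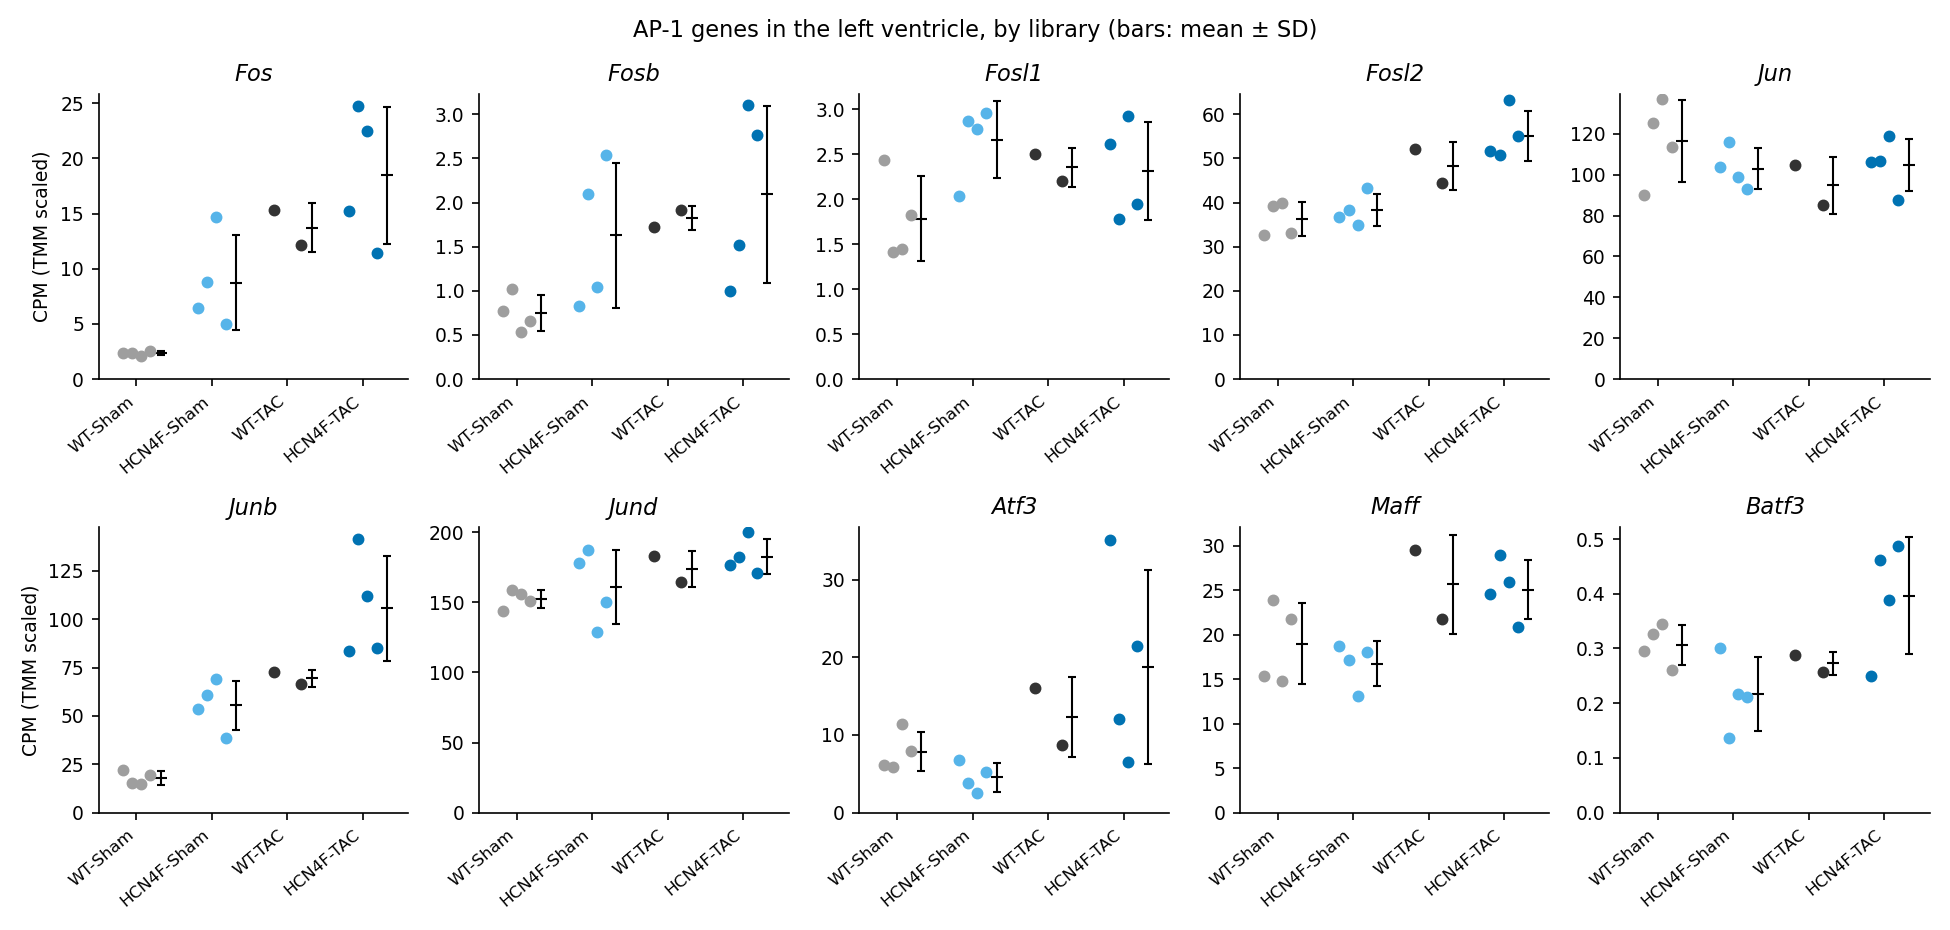
CPM of each AP-1 gene (vertical axes, linear, starting at 0, each gene on its own scale) in the 4 groups (horizontal axes), with 1 point per library and the mean ± SD as a bar at the right of each group. Fos and Junb libraries of WT-Sham lie below those of the other 3 groups, while the Jun groups overlap.

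In WT hearts Fos and Junb were higher with TAC. Fos was 5.85-fold higher in WT-TAC than in WT-Sham, a log2 fold change of 2.55 ± 0.39 (SE), with an adjusted p of 0.00773 in edgeR's quasi-likelihood test. Junb was 3.88-fold higher (1.95 ± 0.24, adjusted p = 0.0019). Calls needed a Benjamini-Hochberg adjusted p under 0.05, over all tested genes, together with a log2 fold change beyond 1 in size. By this rule 2 of 10 members were called higher, against 0.445% of all tested genes. The members' median log2 fold change was 0.42, against -0.02 for all genes. Fosb (1.29 ± 0.47, adjusted p = 0.124) and Fosl2 (0.41 ± 0.12, adjusted p = 0.0515) did not pass. With edgeR on the WT groups alone Fosb was called (log2 1.30, adjusted p = 0.0102). Over the 11 alternatives Fosl2 had log2 fold changes of 0.29 to 0.52 and adjusted p of 0.00796 to 0.321. Among them were 0.0207 with DESeq2, 0.133 with the replicate number as a block, and, with 1 WT-TAC library left out, 0.321 (replicate 2) and 0.196 (replicate 3). A difference of Fosl2's TAC response between the genotypes was not shown (interaction 0.11 ± 0.15, adjusted p = 0.857). In 5 members (Fos, Fosb, Fosl2, Junb and Jund) both WT-TAC libraries lay above all WT-Sham libraries, as they did in 19.2% of all tested genes. Fos was still called without WT-TAC replicate 2 (log2 2.37, adjusted p = 0.0424) and was lost without WT-TAC replicate 3 (log2 2.71, adjusted p = 0.092).

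In HCN4F hearts 5 members, Fos, Fosl2, Junb, Atf3 and Maff, were higher with TAC. Fos was 2.13-fold higher in HCN4F-TAC than in HCN4F-Sham (log2 1.09 ± 0.31, adjusted p = 0.0339) and Atf3 4.07-fold higher (2.03 ± 0.51, adjusted p = 0.0221). These 2 members were called higher, against 1.58% of all tested genes. Junb was 1.91-fold higher (0.93 ± 0.20, adjusted p = 0.00828), Fosl2 1.44-fold (0.53 ± 0.10, adjusted p = 0.00186) and Maff 1.5-fold (0.58 ± 0.17, adjusted p = 0.0304), all with a log2 fold change under 1. By the adjusted p alone 5 of 10 members were thus higher, against 7.2% of all tested genes. The median log2 fold change of the members was 0.55, against -0.01 for all genes. In Fosl2, Junb and Maff all HCN4F-TAC libraries lay above all HCN4F-Sham libraries, which held for 7.95% of all tested genes.

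The calls of Fos and Atf3 in this comparison depended on the libraries and on the fit. With edgeR fitted on the compared groups alone neither was called, with adjusted p-values of 0.132 for Fos and 0.069 for Atf3. Fos was also lost without a filter on low counts (0.0907) and without HCN4F-Sham replicate 1, 2 or 4 or HCN4F-TAC replicate 2 or 3 (0.0692 to 0.101). Atf3 was lost without HCN4F-Sham replicate 2 or 3 or HCN4F-TAC replicate 1 or 4 (0.0507 to 0.0599). Maff exceeded 0.05 without a filter (0.097) and without HCN4F-Sham replicate 2 or 3 or HCN4F-TAC replicate 1, 2 or 3 (0.0549 to 0.0958). The adjusted p of Junb was 2.1e-05 to 0.0284 over all alternatives, and that of Fosl2 at most 0.00738.

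**Figure D2:**
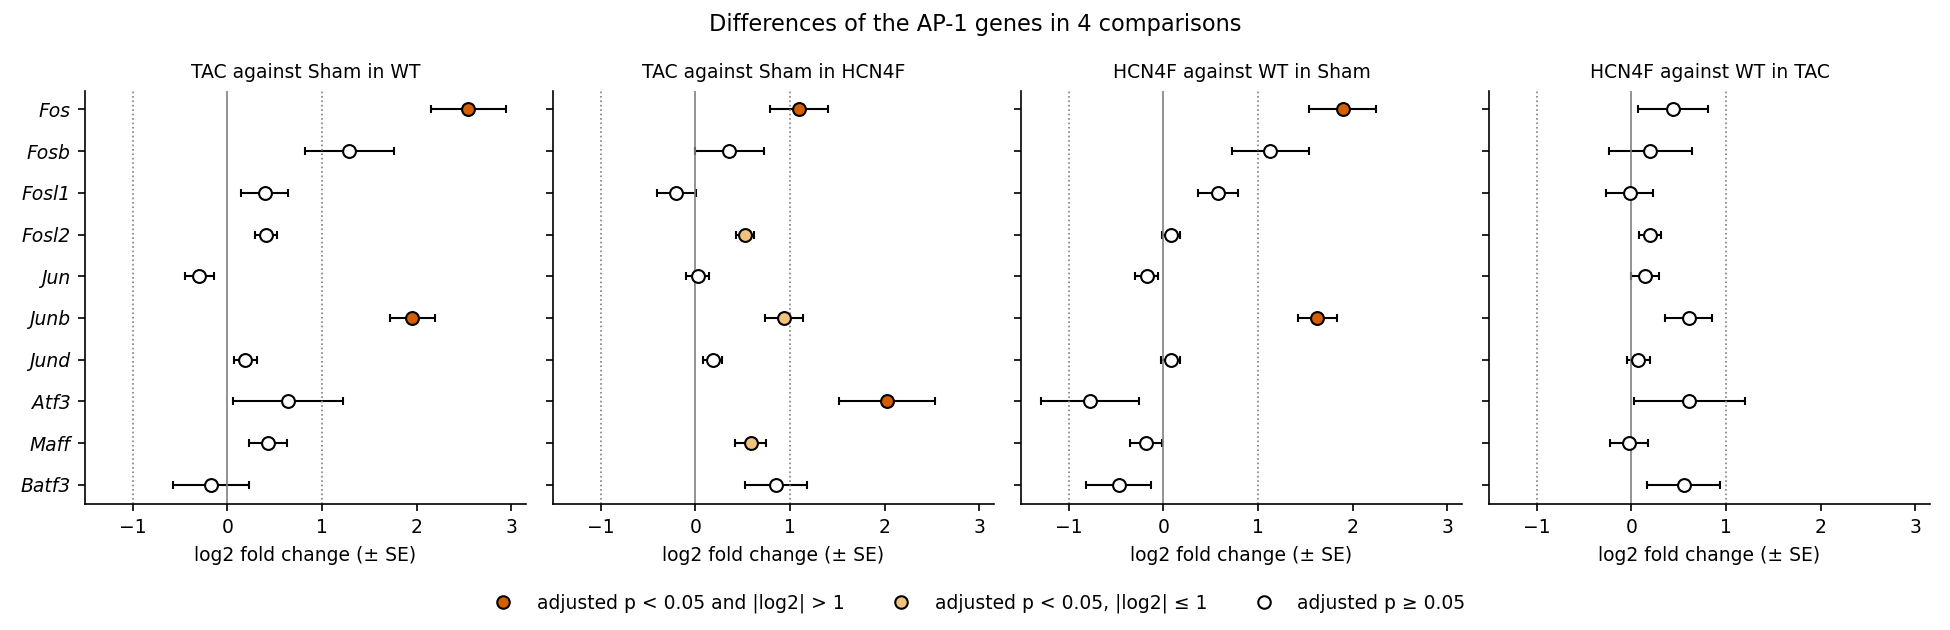
Log2 fold change (horizontal axes) of each AP-1 gene in 4 comparisons, with bars for the standard error of edgeR's fit, dotted lines at -1 and 1, and the fill showing which limits were passed. Fos and Junb have filled points in the panels of TAC in WT and of the Sham groups. In that of TAC in HCN4F, Fos and Atf3 have the darker fill of a call. Fosl2, Junb and Maff have the lighter fill there, for the adjusted p alone. No member passed the adjusted p between the TAC groups.

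Without pressure overload Fos and Junb were already higher in HCN4F hearts. Against WT-Sham, Fos in HCN4F-Sham was 3.72-fold higher (log2 1.89 ± 0.35, adjusted p = 0.0411), and Junb 3.09-fold higher (1.63 ± 0.21, adjusted p = 0.00377). These 2 of 10 members were called higher, against 0.085% of all tested genes. They were also the members whose HCN4F-Sham libraries all lay above the WT-Sham libraries, which held for 3.89% of all tested genes. The members' median log2 fold change was 0.08, against 0.00485 for all genes. Fosb (1.13 ± 0.41, adjusted p = 0.212) and Fosl1 (0.58 ± 0.21, adjusted p = 0.205) did not pass. Junb was called in every alternative fit tried. Fos was not called without a filter on low counts (adjusted p = 0.0658). It was also lost without any 1 of the WT-Sham libraries or without HCN4F-Sham replicate 2 or 3 (adjusted p of 0.0566 to 0.129). This comparison and that of TAC against Sham in WT share the WT-Sham libraries, in which Fos and Junb were lowest.

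After TAC no member was called between the genotypes, against 0.0392% of all tested genes called higher in HCN4F-TAC. Junb in HCN4F-TAC was 1.52 times its WT-TAC level (log2 0.61 ± 0.25, adjusted p = 0.339) and was the only member with an unadjusted p under 0.05 in edgeR. All 4 HCN4F-TAC libraries of Junb lay above both WT-TAC libraries, as they did for 11.3% of all tested genes. Fos differed by 0.44 ± 0.37 on the log2 scale (adjusted p = 0.68) and its groups overlapped. DESeq2 called no member in this comparison either.

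The genotype by surgery interaction, the TAC difference in HCN4F minus that in WT on the log2 scale, was -1.46 ± 0.50 for Fos and -1.02 ± 0.31 for Junb. Neither passed the adjusted p (0.47 for Fos and 0.439 for Junb), and a difference of the TAC responses was not shown for any member. Among all tested genes 0% passed by edgeR, with 1418 at an unadjusted p under 0.05, and 34 passed by DESeq2, none of them a member.

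Fosb, another inducible Fos protein, was low. It measured 0.776, 1.02, 0.535 and 0.653 CPM in WT-Sham and 0.828, 2.10, 1.05 and 2.54 CPM in HCN4F-Sham. In WT-TAC it measured 1.73 and 1.92 CPM, and in HCN4F-TAC 0.995, 1.52, 3.11 and 2.77 CPM, on 14 to 88 counts per library. Both HCN4F groups spread widely and overlapped each other, and no comparison passed in the fit over all groups. Fosl1, a Fos protein of proliferating cells, ranged from 1.42 to 2.44 CPM in WT-Sham, 2.03 to 2.96 in HCN4F-Sham, 2.20 to 2.51 in WT-TAC and 1.78 to 2.93 in HCN4F-TAC, and passed in none. Its exons overlap those of Ccdc85b on the other strand, with group means of 25.8 to 38.8 CPM for Ccdc85b, so the Fosl1 values are uncertain.

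Fosl2 (chromosome 5, 32135801 to 32157842), the most abundant Fos transcript in WT-Sham by CPM per kb, varied little within groups. It measured 32.7, 39.3, 39.9 and 33.2 CPM in WT-Sham and 36.7, 38.3, 34.8 and 43.4 CPM in HCN4F-Sham. In WT-TAC it measured 52.1 and 44.5 CPM, and in HCN4F-TAC 51.6, 50.9, 63.2 and 55 CPM. Every TAC library was above every Sham library, whatever the genotype. Between the genotypes its log2 fold changes were 0.08 ± 0.10 in Sham and 0.19 ± 0.12 in TAC, and neither passed.

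Jun and Jund, the members with the highest levels in WT-Sham by CPM per kb, passed no test. Jun (chromosome 4, 95049034 to 95052222), a target of the JNK kinases, measured 90.0, 125, 137 and 113 CPM in WT-Sham and 104, 116, 98.9 and 93.1 CPM in HCN4F-Sham. In WT-TAC it measured 105 and 85.0 CPM, and in HCN4F-TAC 106, 107, 119 and 87.6 CPM, and all groups overlapped. Its log2 fold changes were -0.30 ± 0.15 for TAC in WT, 0.03 ± 0.12 for TAC in HCN4F, -0.18 ± 0.12 between the Sham groups and 0.14 ± 0.15 between the TAC groups, and the value for TAC in HCN4F changed sign with 1 library left out. Jund ranged from 144 to 159 CPM in WT-Sham, 129 to 187 in HCN4F-Sham, 165 to 183 in WT-TAC and 171 to 200 in HCN4F-TAC. Its log2 fold changes were 0.19 ± 0.12 and 0.18 ± 0.10 for TAC in WT and HCN4F, and 0.08 ± 0.10 and 0.07 ± 0.12 between the genotypes in Sham and TAC. Junos, antisense to Jun, averaged 0.435 to 0.574 CPM per group, and Gm11175, antisense to Jund, had no count in any library.

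Atf3 (chromosome 1, 191170296 to 191218039), a stress-induced bZIP protein that pairs with Jun proteins and often represses, spread widely after TAC. It measured 6.10, 5.91, 11.4 and 7.94 CPM in WT-Sham and 6.78, 3.83, 2.46 and 5.16 CPM in HCN4F-Sham. In WT-TAC it measured 16.0 and 8.64 CPM, and in HCN4F-TAC 35.1, 12, 6.46 and 21.4 CPM. The highest and the lowest HCN4F-TAC libraries, replicates 1 and 3, differed by more than the HCN4F-Sham and HCN4F-TAC means, and replicate 3 lay within the HCN4F-Sham range. Its log2 fold changes were 0.64 ± 0.58 for TAC in WT (adjusted p = 0.558), -0.77 ± 0.52 between the Sham groups (adjusted p = 0.508) and 0.61 ± 0.59 between the TAC groups (adjusted p = 0.733).

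Maff (chromosome 15, 79346621 to 79359076), a small Maf protein without an activation domain, measured 15.4, 23.9, 14.8 and 21.8 CPM in WT-Sham and 18.7, 17.1, 13.1 and 18.1 CPM in HCN4F-Sham. In WT-TAC it measured 29.6 and 21.7 CPM, and in HCN4F-TAC 24.6, 28.9, 26.0 and 20.9 CPM. The HCN4F groups were apart, while the WT groups overlapped (0.43 ± 0.20, adjusted p = 0.222). Batf3, a bZIP protein of dendritic cells, had 3 to 14 counts per library. Its means were 0.307 ± 0.0364 CPM (SD, n = 4) in WT-Sham, 0.217 ± 0.0671 (n = 4) in HCN4F-Sham, 0.273 ± 0.0212 (n = 2) in WT-TAC and 0.397 ± 0.107 (n = 4) in HCN4F-TAC. Its log2 fold changes were -0.17 ± 0.40 for TAC in WT (adjusted p = 0.849), 0.85 ± 0.33 for TAC in HCN4F (adjusted p = 0.0955), -0.47 ± 0.34 between the Sham groups (adjusted p = 0.565) and 0.55 ± 0.39 between the TAC groups (adjusted p = 0.595), and none passed.

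Set together as CPM per kb, the 4 Fos and 3 Jun transcripts differed in makeup between the groups. In WT-Sham Jun and Jund made up 90.4% ± 1.61 (SD, n = 4) of the sum of the 7 genes, and Fos and Junb 6.27% ± 1.49. Fos and Junb made up 17.2% ± 4.87 (n = 4) in HCN4F-Sham, 20.4% ± 0.186 (n = 2) in WT-TAC and 26.2% ± 4.48 (n = 4) in HCN4F-TAC. Jun and Jund made up 79.3% ± 4.73, 75.9% ± 0.148 and 70.3% ± 4.07 in the same groups. The highest WT-Sham share of Fos and Junb, 8.17%, was below the lowest share in any other group, 13.1%. The 4 Fos genes together were a minor part, from 4.06% ± 0.218 (n = 4) in WT-Sham to 7.34% ± 0.611 (n = 4) in HCN4F-TAC. The summed level of the 7 genes was 141 ± 8.57 CPM per kb (SD, n = 4) in WT-Sham and 203 ± 22.8 (n = 4) in HCN4F-TAC. Shares of transcripts do not give the makeup of the protein dimers, and no test was made on them.

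**Figure D3:**
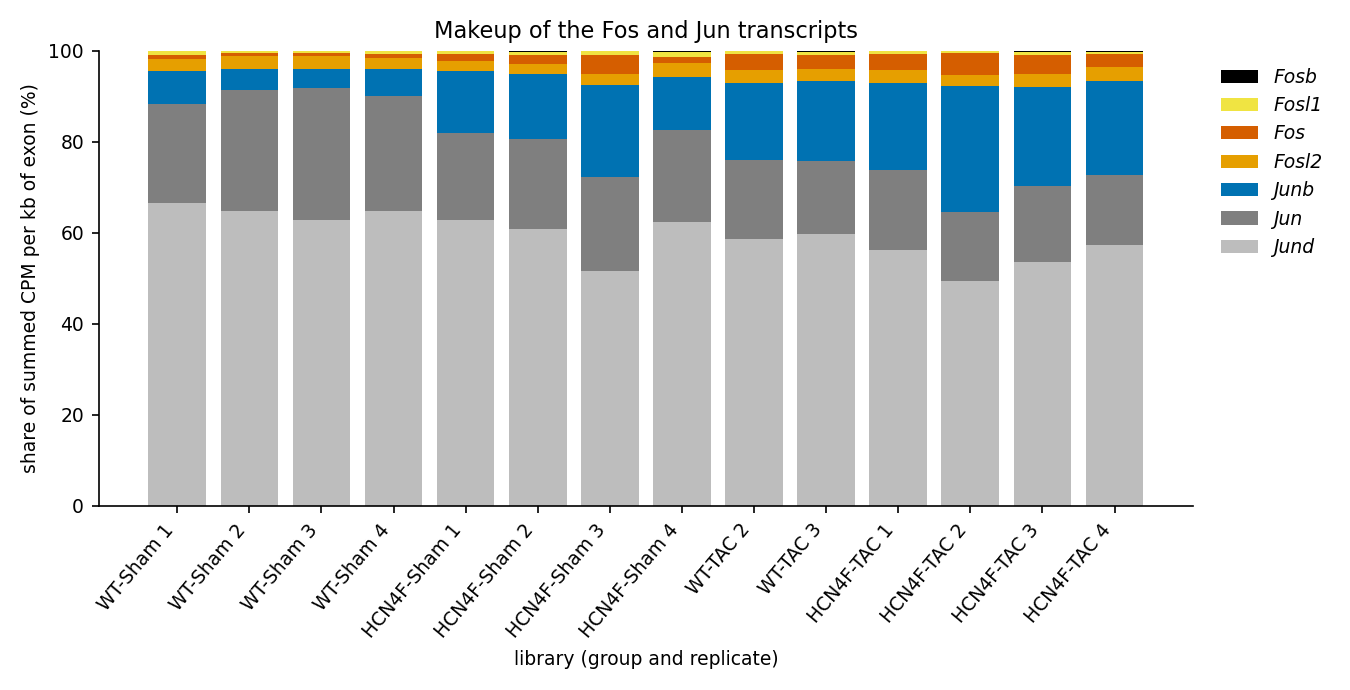
Share (%) of each of 7 Fos and Jun genes in their summed CPM per kb of exon, stacked to 100%, with 1 bar for each of the 14 libraries. The Junb and Fos segments together reach 22.7% to 32.5% in HCN4F-TAC and 13.1% to 24.2% in HCN4F-Sham, ranges that overlap, and at most 8.17% in WT-Sham.

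Fos and Junb moved together from library to library, also inside groups. Pearson's r of their log2 CPM was 0.979 over 14 libraries, and 0.828 after the group means were subtracted. Fos and Jun had r = -0.269 over all libraries and 0.33 within groups, and Fos and Fosl2 had 0.705 over all and -0.273 within groups. Atf3 went another way within groups, with r = -0.624 against Fos and -0.577 against Junb. Over all libraries these values were 0.222 and 0.237. In HCN4F-Sham and HCN4F-TAC the libraries high in Fos tended to be low in Atf3. These are descriptions over few libraries, in which the genes share the depth and tissue piece of each library.

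**Figure D4:**
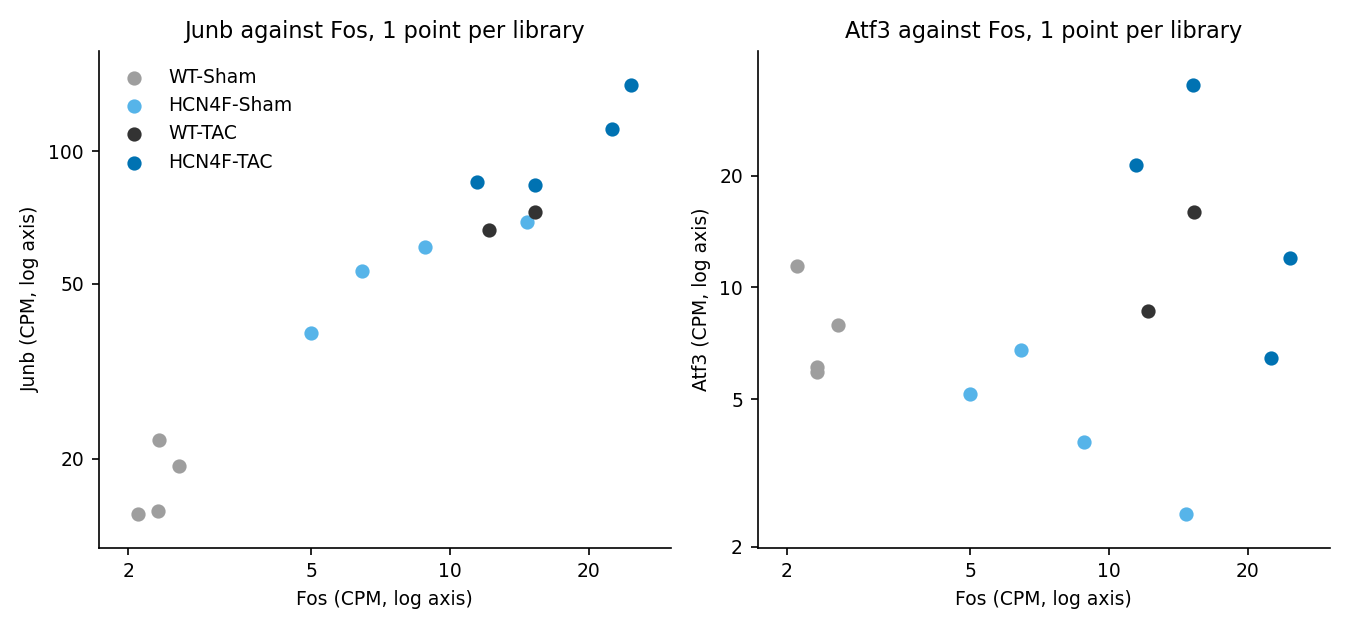
CPM of Junb (left) and Atf3 (right) against CPM of Fos, with log axes and 1 point per library coloured by group. Junb follows Fos over all 14 libraries (r = 0.979 on log2 CPM), while Atf3 is lowest in the HCN4F-Sham library with the most Fos, at 2.46 CPM.

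Among 12555 tested genes with a mean of at least 1 CPM, those most like Fos over the 14 libraries by Pearson's r of log2 CPM were Btg2 (0.963), Dcaf10 (0.935), Egr1 (0.926), Ier2 (0.923) and Tbc1d8b (0.917). Those most like Junb were Egr1 (0.954), Ier2 (0.945), Egr2 (0.928), Btg2 (0.921) and Cyr61 (0.920). Btg2, Egr1, Egr2, Ier2 and Cyr61 are themselves immediate early genes. Within groups Btg2 kept r = 0.869 with Fos and Ier2 0.81 with Junb, while Egr2 (0.133) and Cyr61 (0.0322) had little left with Junb.

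The 20 immediate early genes outside the family, many of them driven by SRF, were looked at beside the members, and 18 could be tested. In WT 7 were called higher with TAC, against 0.445% of all tested genes, among them Egr1 (log2 3.63 ± 0.34, adjusted p = 0.00107) and Cyr61 (1.68 ± 0.15, adjusted p = 7.4e-05). Myc, Ier2 and Egr3 followed by p. In HCN4F 5 were called higher with TAC, against 1.58% of all tested genes, namely Cyr61, Ctgf, Egr3, Egr2 and Nr4a1, and Egr1 had 0.47 ± 0.27 (adjusted p = 0.295). For the interaction Egr1 had -3.17 ± 0.44 and did not pass in edgeR (adjusted p = 0.168), where no gene of the list did. DESeq2 called Egr1 (-3.17 ± 0.48, adjusted p = 3.74e-07) and Ier2 (-1.30 ± 0.29, adjusted p = 0.00628) for the interaction. Between the Sham groups 4 were called higher in HCN4F, against 0.085% of all tested genes, namely Egr1 (3.65 ± 0.31, adjusted p = 0.000175), Ier2, Myc and Egr3. The mean of Egr1 was 12.6 ± 4.05 CPM in WT-Sham (SD, n = 4) and 157 ± 54.1 in HCN4F-Sham (n = 4). DESeq2 called 6 between the Sham groups, and as many as edgeR for TAC in either genotype. Between the TAC groups edgeR and DESeq2 called 0, with 3 at an unadjusted p under 0.05 in edgeR. None was called lower by edgeR in the pairwise comparisons. The medians of the list were 0.91 and 0.57 for TAC in WT and HCN4F, 0.49 between the Sham groups and 0.40 between the TAC groups, against -0.02 to 0.00485 for all genes.

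Of 26 textbook AP-1 target genes 22 could be tested. In WT Cd44, a hyaluronan receptor, and Hbegf, an EGF receptor ligand, were called higher with TAC (1.13 ± 0.24, adjusted p = 0.0232, and 1.07 ± 0.27, adjusted p = 0.0415), against 0.445% of all tested genes. In HCN4F 7 were called higher, against 1.58% of all tested genes, led by Ptgs2, the inducible cyclooxygenase, at 2.46 ± 0.25 (adjusted p = 2.8e-05) and Hbegf at 1.77 ± 0.23 (adjusted p = 0.000362). The stromelysin Mmp3, Cd44 and osteopontin (Spp1) followed by p. Between the Sham groups edgeR and DESeq2 called 0, with 7 at an unadjusted p under 0.05 in edgeR, and 19 of the 22 had a log2 fold change above 0 there. Vegfa had a lower level in HCN4F-Sham (-0.74 ± 0.15, adjusted p = 0.0441), within the fold limit. Between the TAC groups Ptgs2 was called higher in HCN4F-TAC (1.88 ± 0.31, adjusted p = 0.0176), at 3.46 ± 0.533 CPM (SD, n = 4) against 0.943 ± 0.119 (n = 2). Of all tested genes 0.0392% were called higher there. DESeq2 called 3 targets there, against 1 by edgeR, and 8 against 7 for TAC in HCN4F. For the interaction edgeR called 0, with 5 at an unadjusted p under 0.05, and DESeq2 called Mmp3 (1.72 ± 0.36, adjusted p = 0.0028). The medians of the targets were 0.19 and 0.38 for TAC in WT and HCN4F, 0.37 between the Sham groups and 0.54 between the TAC groups, against -0.02 to 0.00485 for all genes.

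Few partners and upstream signalling genes of AP-1 passed the test. Of 24 other bZIP partners 23 could be tested, and edgeR and DESeq2 called 0 in any comparison, with 3 to 8 per pairwise comparison at an unadjusted p under 0.05 in edgeR. By the adjusted p alone Atf6, a sensor of endoplasmic reticulum stress, and the small Maf gene Mafk were higher with TAC in WT (0.66 ± 0.13 and 0.34 ± 0.09), and Mafk and Atf4 in HCN4F (0.47 ± 0.08 and 0.47 ± 0.08). These are 2 of 23 in each genotype, where 2.92% of all tested genes in WT and 7.2% in HCN4F were higher by the same rule. Of 29 kinases and factors upstream of AP-1 all could be tested, and both tools called 0 in any comparison, with 4 to 8 per pairwise comparison at an unadjusted p under 0.05 in edgeR. By the adjusted p alone 3 were higher with TAC in HCN4F, among them Srf (0.42 ± 0.11, adjusted p = 0.0193), and 2 were lower, among them the p38 kinase Mapk14 (-0.37 ± 0.08, adjusted p = 0.00355). With 29 genes tested, these counts are near the background of 7.2% of all tested genes higher and 6.41% lower. Their activity is set by phosphorylation, which transcripts do not show.

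The marker lists of neutrophils, B and plasma cells, endothelial cells and atrial cardiomyocytes had their lowest median levels in WT-Sham, as Fos and Junb did. The 4 neutrophil markers summed to 0.535 to 1.23 CPM in WT-Sham, 1.83 to 2.75 in HCN4F-Sham, 2.23 to 3.41 in WT-TAC and 1.70 to 5.16 in HCN4F-TAC, and S100a8 and S100a9 were called higher with TAC in WT. The 5 markers of B and plasma cells summed to 3.82 to 7.12 CPM in WT-Sham, 8.03 to 19.8 in HCN4F-Sham, 5.96 to 15.2 in WT-TAC and 11 to 24.9 in HCN4F-TAC, with Cd79a called higher with TAC in HCN4F. The 5 endothelial markers had medians of 843 CPM in WT-Sham, 978 in HCN4F-Sham, 868 in WT-TAC and 893 in HCN4F-TAC, with libraries that overlapped between all groups. The 5 atrial markers had medians of 3.91 CPM in WT-Sham, 5.17 in HCN4F-Sham, 4.99 in WT-TAC and 14 in HCN4F-TAC. Of them Dkk3 was called higher with TAC in HCN4F. The 8 ventricular markers ran the other way, with 72240 to 74809 CPM in WT-Sham, 64150 to 68514 in HCN4F-Sham, 67036 to 67312 in WT-TAC and 54222 to 61082 in HCN4F-TAC. The 6 fibroblast markers summed to 599 to 613 CPM in WT-Sham, 585 to 747 in HCN4F-Sham, 553 to 652 in WT-TAC and 714 to 1151 in HCN4F-TAC. Their level in HCN4F-Sham and WT-TAC thus overlapped that in WT-Sham. Among these markers Col1a1 was called higher with TAC in HCN4F. The 6 macrophage markers summed to 119 to 139 CPM in WT-Sham, 118 to 148 in HCN4F-Sham, 105 to 118.6 in WT-TAC and 110 to 174 in HCN4F-TAC, with WT-TAC just below WT-Sham. The part of these cells in the Fos and Junb values was not tested.

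The 5 atrial markers summed to 55.3 CPM in HCN4F-TAC replicate 2, the library highest in Fos and Junb, against 3.46 to 18.4 in the others. Without this library Junb still passed for TAC in HCN4F (log2 0.76, adjusted p = 0.0227), as did Atf3 (2.19, adjusted p = 0.0297), while Fos had 0.91 with an adjusted p of 0.101.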

How the data were processed

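RNA was isolated from LV tissue and mRNA was sequenced after polyA selection on an Illumina platform. The authors deposited raw counts per gene, without normalization. The submitters' processing notes name GRCm38. The aligner, counter, annotation and use of strand are not given in the sources used here. Of 16 samples described, 14 were analysed, and 2 count columns that match no sample here, both with TAC and WT in their names, were not used, which leaves WT-TAC at 2 libraries. Labels gave groups and replicate numbers. Library titles also carried a longer number, whose meaning is not given in the sources used here. By it the HCN4F libraries came lowest, WT-TAC next and WT-Sham highest, without mixing. Whatever went with this number could not be told apart from genotype, or from surgery in WT, and was not tested. The study calls the replicates biological. All pairs of replicates differed by more than sampling noise.

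Genes were filtered with filterByExpr and scaled with TMM in edgeR 4.0.16 (R 4.3.3), and 1 mean per group was fitted over all libraries. Tests were edgeR's quasi-likelihood test (robust) with Benjamini-Hochberg adjustment, and the code was tested on simulated data. CPM are TMM-scaled, and log2 values used a prior count of 2. Correlations are descriptions. The alternatives were DESeq2 1.42.0, a fit on the compared groups, the adjusted p alone, DESeq2's size factors, no filter, the replicate number as a block, and each library left out. GENCODE M21, in which 99.3% of gene IDs were found, gave positions and exon lengths, and RefSeq (GRCm38.p6) the promoter windows, with no window for Fosl1.

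The members and gene lists were chosen with earlier results of these data known. Named were all members, in each list and comparison the called genes (at most 5 by p), and the 5 genes most like each member called in at least 2 pairwise comparisons. Others (Atf6, Mafk, Atf4, Srf, Mapk14, Vegfa and neighbouring genes) were named after their values were seen.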

Additional observations from a re-analysis of the deposited data

How the results depend on the processing

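For TAC in HCN4F the 2 called members became 0 with edgeR on the compared groups, 1 without a filter (Atf3) and 5 on the adjusted p alone, and leaving out 1 library gave 0 to 2. Between the Sham groups the 2 calls became 1 without a filter (Junb), and leaving out 1 library gave 1 to 2. For TAC in WT the 2 calls became 3 with edgeR on the compared groups (Fosb added), and leaving out 1 library gave 1 to 2. Between the TAC groups and for the interaction no member was called in any alternative. The replicate block gave 2 called members for TAC in WT, 2 for TAC in HCN4F, 2 between the Sham groups and 0 between the TAC groups, and it changed no call of a member. Deviations from the group means of same-numbered libraries had correlations of -0.12 to 0.159, so the numbers were not taken as pairs. The cause of these changes was not tested. Of 660 log2 fold changes of members under the alternatives, 617 kept their direction and their side of the threshold, 20 were no longer called, 4 became called and 19 changed sign, none of these 19 in a called value. Leaving out 1 library gave -0.0399 to 0.10 for Jun with TAC in HCN4F and -0.0027 to 0.17 for Jund between the Sham groups. Between the TAC groups it gave -0.0593 to 0.42 for Fosb, -0.16 to 0.0832 for Fosl1, -0.0035 to 0.15 for Jund and -0.24 to 0.21 for Maff. For the interaction it gave -0.10 to 0.0746 for Jund and -0.0546 to 0.39 for Maff, and the replicate block gave 0.0328 for Jund. With DESeq2's size factors no group mean of a member moved by more than the spread between libraries. Over all genes the 108 calls for TAC in WT became 195 with edgeR on the compared groups, 694 on the adjusted p alone and 68 with the block, and 7 without WT-TAC replicate 3. The 420 calls for TAC in HCN4F became 2081 on the adjusted p alone. The 32 calls between the Sham groups became 74 with DESeq2, 72 on the adjusted p alone, 53 without a filter and 21 with the block, and 11 to 92 with 1 library left out. The 11 calls between the TAC groups became 87 with DESeq2, 3 with edgeR on the compared groups, 17 on the adjusted p alone, 48 without a filter and 7 with the block, and 158 without HCN4F-TAC replicate 3. The 0 calls for the interaction became 34 with DESeq2, 17 without a filter and 78 without HCN4F-TAC replicate 3. The shares of all genes given beside the members move with these counts. WT-TAC has 2 libraries, and Batf3 and Fosb have few counts.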
